A study of Mus musculus with 12 samples.

Results

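The genes studied were 8 regulators of G protein signalling, of the 22180 genes measured in mouse CD8+ T cells: Rgs1, Rgs2, Rgs3, Rgs10, Rgs14, Rgs16, Rgs18 and Rgs19. A gene was included when at least 1 row of the deposited value table carried its symbol and no other in the platform's probe annotation, and 9 rows did so, with 2 for Rgs2 and 1 for each of the other members. The 8 genes were chosen by name with earlier results of these values known, and the selection does not state which comparison decided it. Their differences between groups are therefore given as descriptions, with standard errors, and no p-value of a single member is printed. Counts of members past the threshold of the fit are descriptions too.

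The cells were purified by negative selection from spleens of C57BL/6 mice and kept in culture for 6 h before total RNA was extracted. Each of the 4 groups had 3 arrays: PBS alone, PBS with IFN-4a (a type I interferon), anti-CD3 antibody (which triggers the T cell receptor complex), and anti-CD3 with IFN-4a. All groups thus shared the same strain, tissue, isolation and culture time, and the cells treated with PBS are called unstimulated here. The labels give no age or sex, no dose, and no word on whether the replicates came from separate animals, so p-values refer to the variation among these arrays alone, part or all of which may be technical.

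RGS proteins bind the active, GTP-bound alpha subunit of a heterotrimeric G protein and speed its hydrolysis of GTP, which ends the signal that a receptor started. In lymphocytes many of these receptors respond to chemokines or to the lipid sphingosine 1-phosphate, and RGS proteins limit how strongly and how long the cells answer them. The family members differ in the alpha subunits they act on and in the domains they carry beside the RGS domain.

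The values are on a log scale read as log2, and the authors centred each row on its median over the 12 arrays. A value of 0 is thus a gene's own middle level, and levels cannot be compared between genes. If the base were the natural logarithm, every fold printed here would be larger. A gene was called in a comparison when limma's Benjamini-Hochberg adjusted p over all 22180 genes was under 0.05, and "rose" and "fell" are used of genes that are not members only where this held.

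Rgs16 and Rgs2 lay at opposite ends of the members in the comparison of anti-CD3 with PBS, and the 250 bases before their annotated starts, taken from RefSeq on GRCm38.p6, are shown to put sequence beside these differences. The Rgs16 window is chr1:153740103-153740352 on the plus strand and the Rgs2 window chr1:144004150-144004399 on the minus strand. Both are written 5′ to 3′ in lower case, with no part in capitals because no searched motif was found in them.
Rgs16 upstream: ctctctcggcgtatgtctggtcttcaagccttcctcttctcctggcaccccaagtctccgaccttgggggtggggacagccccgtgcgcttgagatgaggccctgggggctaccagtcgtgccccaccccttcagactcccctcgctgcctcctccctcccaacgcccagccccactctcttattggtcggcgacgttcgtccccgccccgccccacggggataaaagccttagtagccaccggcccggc
Rgs2 upstream: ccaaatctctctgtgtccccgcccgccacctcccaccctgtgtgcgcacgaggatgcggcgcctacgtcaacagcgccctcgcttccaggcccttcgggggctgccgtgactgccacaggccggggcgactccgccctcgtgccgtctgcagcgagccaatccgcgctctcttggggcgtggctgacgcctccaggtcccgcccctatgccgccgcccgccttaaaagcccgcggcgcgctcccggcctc
The RefSeq promoter table held windows of 300 bases, 250 before and 50 after the start, for 5 of the 8 members: Rgs2, Rgs3, Rgs10, Rgs16 and Rgs19. Searched on both strands, the core of the interferon-stimulated response element occurred in 3.45% of all 32544 windows, TGANTCA (AP-1) in 7.79%, TGACGTCA (CRE) in 1.8% and the kappaB motif in 0.157%. None of these motifs occurred in the windows of the 5 members.

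With anti-CD3, 6 of the 8 members were called against PBS, beside 31.8% of all genes. Rgs16, Rgs1 and Rgs3 were higher (13.8% of all genes were called higher) and Rgs2, Rgs14 and Rgs19 lower (18% of all genes were called lower). With IFN-4a present in both groups, 6 members were called again, beside 27.7% of all genes: the same 3 were higher (12.8% of all genes), and Rgs2, Rgs10 and Rgs14 were lower (14.9% of all genes). These 2 comparisons share no arrays. The median difference of the 8 members was -0.09 without and -0.05 with IFN-4a on the log2 scale, and that of all genes was -0.04 in both. The shares of all genes are given as background, and nothing is read from the members' counts against them. These shares differed with level. A gene is counted as bright here when a probe set of it showed 8 or above before centring on its 6 highest arrays. Of 6737 bright genes, 73.6% were called with anti-CD3, and 71.1% with IFN-4a in both groups. Among them were 5 members, of which 4 were called each time. A gene can count as bright through the groups where it was high.

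With IFN-4a alone, 5 members were called against PBS, beside 12.6% of all genes: Rgs10 and Rgs1 were higher (4.25% of all genes) and Rgs14, Rgs19 and Rgs2 lower (8.37% of all genes). Of the 6737 bright genes, 36.7% were called, among them 4 of the 5 bright members. With IFN-4a in stimulated cells, limma called none of the 8 against anti-CD3 alone, beside 3.48% of all genes, and 1 of the 8 had an unadjusted p under 0.05. Rgs1 and Rgs16 each had all 3 arrays with IFN-4a below all 3 without, as did 12.1% of all genes. The interaction, which is the IFN-4a difference in stimulated cells minus that in unstimulated cells, was called for Rgs1, beside 0.942% of all genes. The comparisons with IFN-4a alone and with anti-CD3 alone use the same PBS arrays, so their differences are not independent.

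**Figure D1:**
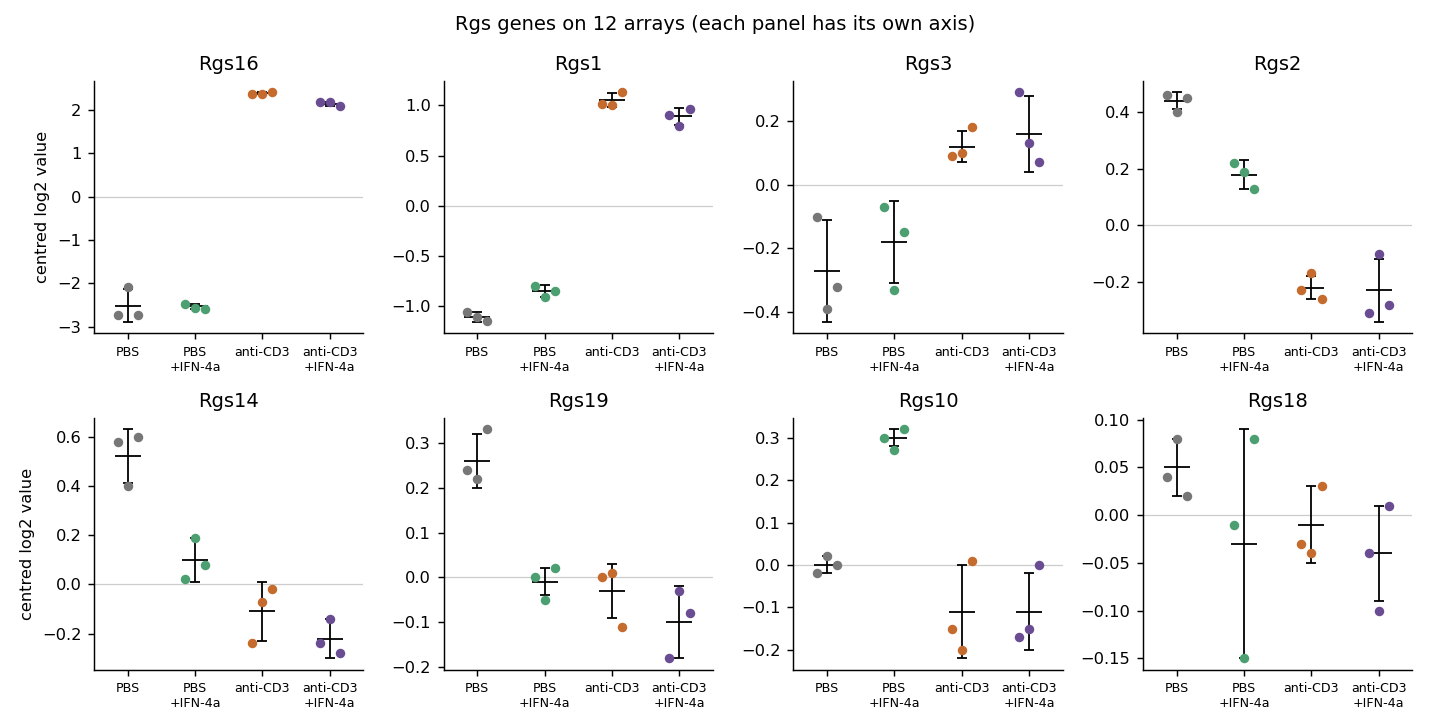
Centred log2 values of the 8 Rgs genes (vertical axis, a separate scale in each panel) in the 4 groups (horizontal axis), with 1 point for each of 3 arrays and a bar for the mean ± SD. Rgs16 and Rgs1 show the 6 anti-CD3 arrays far above the 6 others, Rgs10 shows the PBS with IFN-4a arrays above all others, and Rgs18 shows groups that overlap their neighbours in order within a range of 0.24.

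Rgs16 acts on alpha subunits of the Gi and Gq classes and is known as a gene induced by T cell activation. Its 3 PBS arrays read -2.73, -2.08 and -2.73, and its PBS with IFN-4a arrays -2.47, -2.56 and -2.58. The anti-CD3 arrays read 2.37, 2.36 and 2.40, and those with both agents 2.17, 2.18 and 2.08. The 6 stimulated arrays stood more than 4 log2 units above the 6 unstimulated ones, and the second PBS array stood apart from its 2 replicates. Anti-CD3 minus PBS was 4.89 (SE 0.13), a 29.7-fold difference, which ranked 3 of 22180 genes by absolute size. With IFN-4a in both groups the difference was 4.68 (SE 0.13) or 25.6-fold, at rank 4.

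IFN-4a gave no clear difference in Rgs16 among unstimulated cells, where the arrays overlapped and the difference was -0.02 (SE 0.13, 95% interval -0.30 to 0.26). In stimulated cells it was -0.24 (SE 0.13, 95% interval -0.52 to 0.04), with no overlap between the arrays and no call. The spread in this fit is shared by all 4 groups, so that the second PBS array also widened the interval in stimulated cells. Without that array the difference in stimulated cells was still -0.24 but was called. The difference in unstimulated cells then turned to 0.19 without a call, and the interaction moved from -0.21 to -0.43 and was called. However, the difference in stimulated cells was not called when only the 2 stimulated groups were fitted, without any PBS array. It was not called under array weights either. Under quantile normalization, which forces equal distributions on arrays of centred values, IFN-4a minus PBS in unstimulated cells became -0.87 and was called, the difference in stimulated cells became -0.41 and was called, and the interaction turned to 0.45.

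Rgs1 restrains chemokine receptor signalling in B and T lymphocytes. Its PBS arrays read -1.06, -1.11 and -1.15, and with IFN-4a they read -0.80, -0.91 and -0.85. The anti-CD3 arrays read 1.01, 1.0 and 1.13, and those with both agents 0.90, 0.80 and 0.96. Rgs1 was the only one of the 8 in which no pair of groups overlapped: anti-CD3 was highest, then anti-CD3 with IFN-4a, then PBS with IFN-4a, then PBS. Anti-CD3 minus PBS was 2.15 (SE 0.06, 4.44-fold), and 1.74 (SE 0.06, 3.34-fold) with IFN-4a in both groups.

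The IFN-4a differences of Rgs1 had opposite signs in the 2 states. IFN-4a minus PBS was 0.25 (SE 0.06, 1.19-fold) and was called, and in stimulated cells it was -0.16 (SE 0.06) and was not. The interaction was -0.41 (SE 0.09). This call was narrow: it was lost when any 1 array was left out, other than the third of anti-CD3 with IFN-4a, with values of -0.45 to -0.37 over the 12, and under quantile normalization (-0.33). The call with IFN-4a in unstimulated cells was lost without the first PBS with IFN-4a array (0.23), without the third PBS array (0.23) and under quantile normalization (0.13).

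Rgs3 acts on alpha subunits of the Gi and Gq classes. With PBS its arrays read -0.10, -0.39 and -0.32, and with PBS and IFN-4a -0.07, -0.33 and -0.15. With anti-CD3 they read 0.09, 0.10 and 0.18, and with both agents 0.29, 0.13 and 0.07. All 6 stimulated arrays lay above all 6 unstimulated ones, and within each state the groups with and without IFN-4a overlapped. The difference of anti-CD3 minus PBS was 0.39 (SE 0.09, 1.31-fold), and 0.35 (SE 0.09, 1.27-fold) with IFN-4a in both groups. The IFN-4a differences were 0.09 (95% interval -0.10 to 0.28) in unstimulated and 0.04 (95% interval -0.15 to 0.23) in stimulated cells. Rgs3 was the most variable member after Rgs16, with a mean SD within groups of 0.11 against a median of 0.08 over all genes.

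**Figure D2:**
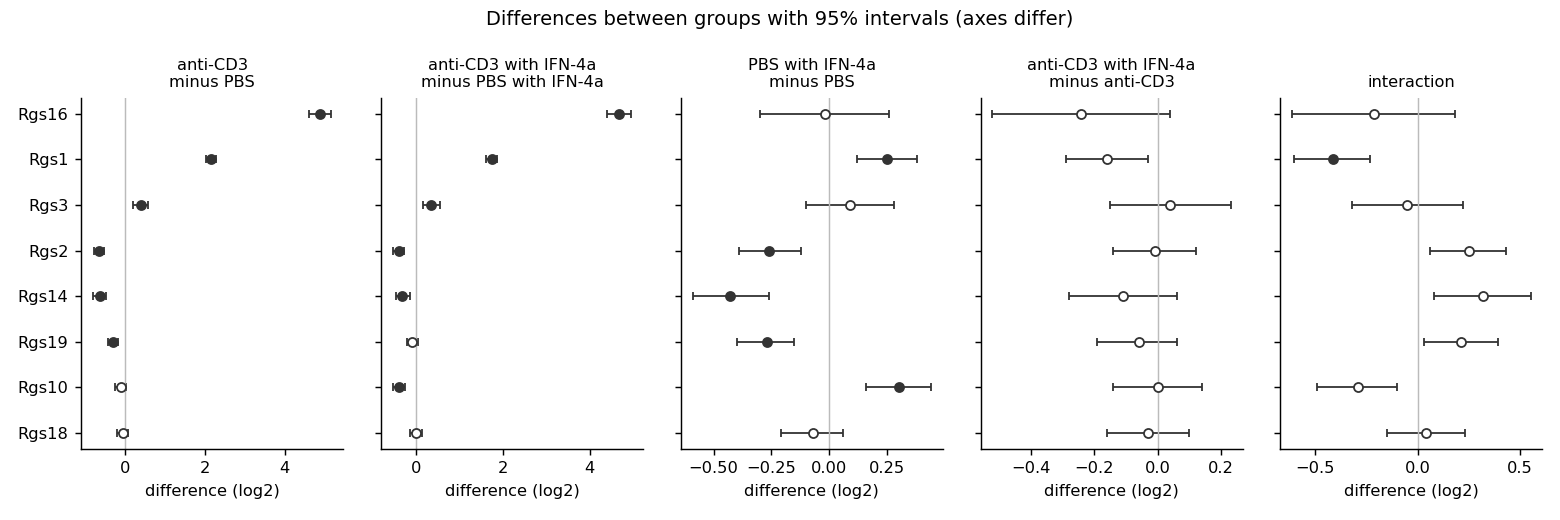
Differences between groups (horizontal axes, log2, with a separate scale in each panel) with 95% intervals from the limma fit, for the 8 Rgs genes (vertical axis), in 4 comparisons and the interaction; filled points were called and open points were not. Rgs16 at 4.89 and Rgs1 at 2.15 stand apart with anti-CD3, while with IFN-4a the members lie between -0.43 and 0.30.

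Rgs2 acts preferentially on Gq alpha subunits. As the mean of its 2 probe sets, its PBS arrays read 0.46, 0.40 and 0.45, and those with IFN-4a 0.22, 0.19 and 0.13. The anti-CD3 arrays read -0.23, -0.17 and -0.26, and those with both agents -0.31, -0.10 and -0.28. The values stepped down from PBS to PBS with IFN-4a and again to the stimulated groups, which overlapped each other. Anti-CD3 minus PBS was -0.66 (SE 0.06, 1.58-fold lower), and -0.41 (SE 0.06, 1.33-fold lower) with IFN-4a in both groups. IFN-4a minus PBS was -0.26 (SE 0.06, 1.19-fold lower), a call that was lost when the third array of PBS with IFN-4a was left out (-0.23) and under quantile normalization (-0.24). In stimulated cells the IFN-4a difference was -0.01 (95% interval -0.14 to 0.12). The interaction was 0.25 (SE 0.09) and was not called.

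The 2 probe sets of Rgs2 differed in size but not in order. Probe set 17227764 averaged 0.71 ± 0.05 (SD, n = 3) with PBS, 0.33 ± 0.07 with PBS and IFN-4a, -0.41 ± 0.06 with anti-CD3 and -0.41 ± 0.14 with both. Probe set 17548932 averaged 0.16 ± 0.07, 0.03 ± 0.05, -0.04 ± 0.06 and -0.05 ± 0.09 in the same order. Anti-CD3 minus PBS was thus -1.12 (SE 0.07) by the first and -0.20 (SE 0.06) by the second, both called. With IFN-4a in both groups the anti-CD3 difference was -0.74 (SE 0.07) by the first, which was called, and -0.08 (SE 0.06) by the second, which was not. IFN-4a minus PBS was -0.38 (SE 0.07) by the first and -0.13 (SE 0.06) by the second, and again only the first was called. The calls of the Rgs2 mean in these 2 comparisons thus rest on the first probe set. The interaction was 0.38 (SE 0.10) by the first and 0.12 (SE 0.09) by the second, and neither was called. With bright probe sets only, the interaction of Rgs2 was 0.38 and was called. The first stood at 8 or above before centring on at least its 6 highest arrays, as the decimal steps of the deposited values show, and the second did not show this. The mean used for Rgs2 is therefore smaller than what the first probe set alone gives.

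**Figure D3:**
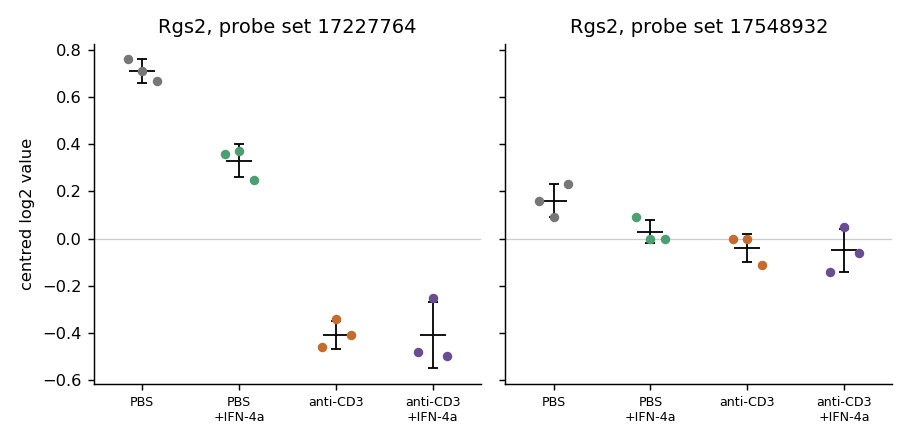
Centred log2 values (vertical axis, shared) of the 2 Rgs2 probe sets in the 4 groups (horizontal axis), with 1 point for each of 3 arrays and a bar for the mean ± SD. Probe set 17227764 runs from 0.71 with PBS to -0.41 with anti-CD3, and probe set 17548932 from 0.16 to -0.04.

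Rgs14 carries, beside its RGS domain, Ras-binding domains and a GoLoco motif that holds Gi alpha subunits in their GDP-bound form. With PBS its arrays read 0.58, 0.40 and 0.60, and with PBS and IFN-4a 0.02, 0.19 and 0.08. With anti-CD3 they read -0.24, -0.07 and -0.02, and with both agents -0.24, -0.14 and -0.28. PBS stood above every other group, PBS with IFN-4a lay next without overlap, and the stimulated groups overlapped. The difference of anti-CD3 minus PBS was -0.64 (SE 0.08, 1.55-fold lower), and -0.32 (SE 0.08, 1.25-fold lower) with IFN-4a in both groups. IFN-4a minus PBS was -0.43 (SE 0.08, 1.35-fold lower), the largest IFN-4a difference in size among the members in unstimulated cells. In stimulated cells the IFN-4a difference was -0.11 (95% interval -0.28 to 0.06), and the interaction of 0.32 (SE 0.11) was not called.

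Rgs19, also known as GAIP, acts on Gi alpha subunits. With PBS its arrays read 0.24, 0.22 and 0.33, and with PBS and IFN-4a 0.00, -0.05 and 0.02. With anti-CD3 they read 0.00, 0.01 and -0.11, and with both agents -0.18, -0.03 and -0.08. PBS alone stood apart, and each of the other 3 groups overlapped the next in order. The difference of anti-CD3 minus PBS was -0.29 (SE 0.06, 1.22-fold lower) and IFN-4a minus PBS was -0.27 (SE 0.06, 1.21-fold lower), both measured against the same PBS arrays. With IFN-4a in both groups the anti-CD3 difference was -0.09 (95% interval -0.21 to 0.04) and was not called. In stimulated cells the IFN-4a difference was -0.06 (95% interval -0.19 to 0.06).

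Rgs10 is a small member of the family that consists of little more than the RGS domain and is common in immune cells. Its PBS arrays read -0.02, 0.02 and 0.00, and with IFN-4a they read 0.30, 0.27 and 0.32. The anti-CD3 arrays read -0.15, -0.20 and 0.01, and those with both agents -0.17, -0.15 and 0.00. Only the PBS with IFN-4a group stood apart, above the other 9 arrays, which overlapped. IFN-4a minus PBS was 0.30 (SE 0.06, 1.23-fold), while in stimulated cells it was 0.00 (95% interval -0.14 to 0.14). Anti-CD3 minus PBS was -0.11 (95% interval -0.25 to 0.03) and was not called, whereas with IFN-4a in both groups it was -0.40 (SE 0.06, 1.32-fold lower) and was called. The difference between those comparisons is the interaction, which was -0.29 (SE 0.09) and was not called.

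Rgs18 is best known from platelets and their precursors. Its PBS arrays read 0.04, 0.08 and 0.02, and with IFN-4a they read -0.01, -0.15 and 0.08. The anti-CD3 arrays read -0.03, -0.04 and 0.03, and those with both agents -0.04, -0.10 and 0.01. Groups next to each other in order overlapped, while the PBS arrays all lay above those with both agents, and the whole range over 12 arrays was 0.24. The 4 differences lay between -0.07 and -0.01, and their 95% intervals reached no lower than -0.21 and no higher than 0.12, which bounds the differences that these arrays allow. Rgs18, Rgs3 and Rgs14 did not show a level of 8 or above before centring on their 6 highest arrays, and whether Rgs18 RNA stood above background cannot be read from centred values.

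Platelet and megakaryocyte markers bear on Rgs18, since those cells are known for it. None of the 5 such markers measured stood at 8 or above on all 12 arrays, and their mean ran from -0.25 to -0.08 on the anti-CD3 arrays and from -0.06 to 0.03 on the PBS arrays, with 1 of 5 called lower. Rgs1 and Rgs2 are also B cell genes. None of the 8 B cell markers measured stood at 8 or above on all 12 arrays, and their mean ran from -0.09 to -0.01 with anti-CD3 and from -0.01 to 0.08 with PBS, with 1 of 8 called lower. For comparison, all 5 CD8 T cell markers (Cd8a, Cd8b1, Cd3d, Cd3e and Cd3g) stood at 8 or above on all 12 arrays. Their mean was also lower with anti-CD3, at -0.16 to -0.09 against 0.09 to 0.12 with PBS, and 3 of 5 were called lower. The rule of all 12 arrays is stricter than that of the 6 highest arrays used for the members. A marker at 8 or above on only some arrays fails it, so it does not show that other cells were absent. Markers of 4 more cell types were measured, and none stood at 8 or above on all 12 arrays. Of 7 markers of monocytes, macrophages and dendritic cells, 1 was called higher and 1 lower with anti-CD3. Of 3 NK cell markers 1 was called lower, of 3 CD4 T cell markers 1 was called higher, and limma called none of 6 granulocyte markers. The part of other cells in the members' differences was not tested. In such a bulk measurement, fewer cells of a type and less RNA per cell cannot be told apart.

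Both treatments acted on their usual genes. Ifit1, Mx1 and Isg15, known interferon-induced genes, were higher with IFN-4a by 3.48 to 5.16 log2 units in unstimulated and by 3.26 to 4.15 in stimulated cells. Cd69, Il2ra and Nr4a1, known activation genes, were higher with anti-CD3 by 2.02 to 3.93 log2 units. Rgs16 at 4.89 lay above that range and Rgs1 at 2.15 within it. Some of these genes also differed with the other treatment. Cd69 (1.16) and Il2ra (0.98) were called higher with IFN-4a in unstimulated cells, and Nr4a1 was not called. Ifit1 (0.91) and Isg15 (0.56) were called higher with anti-CD3, and Mx1 was not called. The interaction was called for Ifit1 (-1.28), Il2ra (-0.97) and Cd69 (-0.85), beside -0.41 for Rgs1. The centred values ran from -4.55 to 3.31 over all rows, and the array medians from -0.0157 to 0.0165. Replicate arrays correlated at 0.734 or more, and arrays of different groups at 0.538 or less, over the centred values of all genes.

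Another 13 genes of the Rgs family were measured, from Rgs4 to Rgs22. Of these, 1 rose and 1 fell with anti-CD3, 1 rose and 1 fell with IFN-4a in unstimulated cells, 1 rose with IFN-4a in stimulated cells, and none was called by limma with anti-CD3 in the presence of IFN-4a (0 at an unadjusted p under 0.05) or in the interaction (1 at an unadjusted p under 0.05). All of these calls belonged to Rgs11 and Rgs12. The other 11 were Rgs4, Rgs5, Rgs6, Rgs7, Rgs8, Rgs9, Rgs13, Rgs17, Rgs20, Rgs21 and Rgs22. The median differences of the 13 lay between -0.05 and 0.04 in the 5 comparisons. Of all genes, 13.8% were called higher and 18% lower with anti-CD3, and 27.7% were called with IFN-4a in both groups. With IFN-4a, 4.25% were called higher and 8.37% lower in unstimulated cells, and 3.48% were called in stimulated cells. The 8 members were chosen with earlier results known, so nothing is read from a contrast with these 13. Whether the 13 stood above background cannot be read from centred values.

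Rgs12 resembles Rgs14 in its domains. With PBS its arrays read -0.48, -0.28 and -0.38, and with PBS and IFN-4a 0.15, 0.10 and 0.04. With anti-CD3 they read -0.13, -0.04 and -0.17, and with both agents 0.12, 0.19 and 0.24. In each state all arrays with IFN-4a lay above those without. By limma, Rgs12 rose with IFN-4a by 0.48 (SE 0.06, adjusted p = 0.000245) in unstimulated and by 0.30 (SE 0.06, adjusted p = 0.0211) in stimulated cells. It thus had a call with IFN-4a in stimulated cells, as none of the 8 members did. That call was lost without the second or the third array of anti-CD3 with IFN-4a (0.29 and 0.27), and without the first or the third anti-CD3 array (0.29 and 0.27), with adjusted p of 0.0594 to 0.0957 by limma. Rgs12 also rose with anti-CD3 by 0.27 (SE 0.06, limma adjusted p = 0.0046).

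Rgs11 belongs to the subfamily that pairs with the G beta 5 subunit. With PBS its arrays read 0.36, 0.40 and 0.38, and with PBS and IFN-4a -0.13, 0.02 and -0.25. With anti-CD3 they read 0.06, 0.07 and -0.02, and with both agents -0.17, -0.04 and -0.05. PBS alone stood above the other groups. By limma, Rgs11 fell by 0.50 (SE 0.07, adjusted p = 0.000251) with IFN-4a in unstimulated cells and by 0.34 (SE 0.07, adjusted p = 0.00118) with anti-CD3, against the same PBS arrays.

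**Figure D4:**
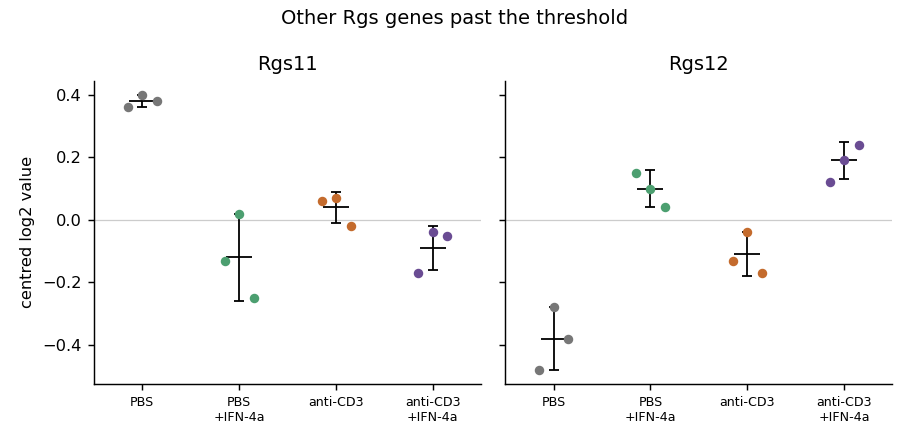
Centred log2 values (vertical axis, shared) of Rgs11 and Rgs12 in the 4 groups (horizontal axis), with 1 point for each of 3 arrays and a bar for the mean ± SD. For Rgs12 the arrays with IFN-4a lie above those without in both states, and for Rgs11 the PBS arrays lie above all others.

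Rgs1, Rgs2 and Rgs18 lie together on chromosome 1, and Rgs1 and Rgs2 differed in direction with anti-CD3. In the RefSeq annotation of GRCm38.p6, the protein-coding genes Rgs2, Rgs13, Rgs1, Rgs21 and Rgs18 follow each other with 0 genes between them, and Rgs8 and Rgs16 are neighbours elsewhere on that chromosome. With anti-CD3, the first run held Rgs2 at -0.66, Rgs13 at -0.06, Rgs1 at 2.15, Rgs21 at -0.15 and Rgs18 at -0.06 on the log2 scale. Of these 5, Rgs13, Rgs21 and Rgs18 were not called, and Rgs1 and Rgs2 lay on opposite sides of 0. Rgs8 was at -0.08 and not called, beside its neighbour Rgs16 at 4.89. Whether Rgs8, Rgs13, Rgs18 and Rgs21 RNA stood above background cannot be read from centred values. Their small differences thus do not show that an expressed gene stayed unchanged.

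Alpha subunits are the direct targets of RGS proteins. Of their 12 genes measured, 2 rose and 4 fell with anti-CD3, with a median of -0.15 against -0.04 for all genes. Of all genes, 13.8% were called higher and 18% lower there. Gnai2, the main Gi alpha subunit of lymphocytes, read 0.26, 0.39 and 0.29 with PBS and -0.28, -0.33 and -0.28 with anti-CD3, and fell by 0.61 (SE 0.06, limma adjusted p = 2.54e-06). Gna13 rose by 0.30 (SE 0.06, limma adjusted p = 0.000735). With IFN-4a in both groups limma called none higher (1 at an unadjusted p under 0.05) and 3 lower, beside 12.8% and 14.9% of all genes. Gnai2 was lowest at -0.69. The other calls, Gna15 (-0.29) and Gna11 (-0.28), were lost in 8 of 18 and 9 of 19 alternatives, and both were lost without the first array of anti-CD3 with IFN-4a (-0.25 and -0.21), without the first array of PBS with IFN-4a (-0.25 and -0.30) and under quantile normalization (-0.29 and -0.28). IFN-4a in unstimulated cells gave 1 call in each direction, beside 4.25% of all genes called higher and 8.37% lower. The 2 genes were Gna13 (0.22) and Gna12 (-0.26). Both were lost under quantile normalization (0.19 and -0.24) and without the first array of PBS with IFN-4a (0.20 and -0.26), the second (0.23 and -0.23) or the second PBS array (0.20 and -0.24). In stimulated cells limma called none (1 at an unadjusted p under 0.05), beside 3.48% of all genes.

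Among 13 beta and gamma subunit genes, 1 rose and 3 fell with anti-CD3 (median -0.03), beside 13.8% and 18% of all genes. With IFN-4a in both groups 3 rose and 1 fell (median -0.02), beside 12.8% and 14.9% of all genes. In the latter comparison the call of Gng10 (0.28) was lost in 10 of 19 alternatives. Among them was each single array left out of the PBS with IFN-4a group except the third, with the lowest value (0.16) without the first. Gng2, a gamma subunit of the complex that carries part of the signal, read 0.21, 0.34 and 0.18 with PBS, 0.07, 0.21 and 0.17 with PBS and IFN-4a, -0.43, -0.39 and -0.43 with anti-CD3, and -0.14, -0.07 and -0.12 with both. It fell by 0.66 with anti-CD3 (SE 0.06, limma adjusted p = 6.92e-07). In stimulated cells it rose with IFN-4a by 0.31 (SE 0.06, limma adjusted p = 0.00872), while the members stood between -0.24 and 0.04 there. The interaction of 0.40 (SE 0.08, limma adjusted p = 0.0377) was called and was lost when any 1 array other than the third PBS array was left out (0.35 to 0.43).

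Proteins outside the Rgs family that hold an RGS-like domain, 9 measured, gave 7 that fell and none that rose by limma with anti-CD3 (0 rose at an unadjusted p under 0.05), with a median of -0.48 against -0.04 for all genes. Of all genes, 18% were called lower there, as were 2550 of the 6737 bright genes. The largest falls in the list were in Arhgef11 (-0.89), Snx14 (-0.86), Arhgef1 (-0.72) and Snx13 (-0.68). Snx13 and Snx14 are sorting nexins. With IFN-4a in both groups 6 fell, beside 14.9% of all genes. IFN-4a itself gave no call by limma in either state (2 at an unadjusted p under 0.05 in unstimulated and 1 in stimulated cells). Of all genes, 12.6% were called with IFN-4a in unstimulated and 3.48% in stimulated cells.

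The receptors upstream moved in both directions. Of 22 chemokine, lipid and other receptors measured, 5 rose and 10 fell with anti-CD3, beside 13.8% and 18% of all genes. With IFN-4a in both groups the counts were again 5 and 10, beside 12.8% and 14.9% of all genes. Ccr4, a receptor for the chemokines CCL17 and CCL22, rose by 2.20 (SE 0.12), Ptger2, a prostaglandin E2 receptor, by 1.53 (SE 0.09) and Gpr65, which senses protons, by 1.44 (SE 0.07), beside 2.15 for Rgs1. S1pr1, the receptor that guides T cells out of lymphoid organs, fell by 1.28 (SE 0.07). With IFN-4a in unstimulated cells 3 receptors rose and 7 fell (median -0.16), beside 4.25% and 8.37% of all genes. Cxcr5 (-0.40) and S1pr1 (-0.37) were among the falls, and the call of Cxcr5 was lost in 5 of 19 alternatives. In stimulated cells 1 rose and 1 fell, beside 3.48% of all genes called in either direction. The fall was in Ccr4 (-0.53), a call lost in 4 of 18 alternatives. P2ry14, a receptor for UDP-glucose, rose with IFN-4a in both states, by 0.84 in unstimulated and 1.47 in stimulated cells (SE 0.12, limma adjusted p = 0.00036 and 2.24e-06).

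Receptor kinases and arrestins, which also end receptor signals, gave 5 of 6 that fell and none that rose by limma with anti-CD3 (0 rose at an unadjusted p under 0.05), with a median of -0.66. Of all genes, 18% were called lower in this comparison. Arrb1 fell by 1.09 (SE 0.08), Grk6 by 0.83 (SE 0.06), Arrb2 by 0.81 (SE 0.07) and Grk5 by 0.51 (SE 0.06). IFN-4a in unstimulated cells gave 4 of 6 that fell, with Arrb1 at -0.83 and Arrb2 at -0.52, on a median of -0.42 against -0.01 for all genes. There, 8.37% of all genes were called lower. Both arrestins also fell with IFN-4a in stimulated cells, by 0.37 and 0.31, calls that were lost when only the 2 groups compared were fitted (the same -0.37 and -0.31) and with some arrays left out. For Arrb1 the arrays concerned were the first and the second of anti-CD3 with IFN-4a (-0.31 and -0.36) and the third of anti-CD3 (-0.30). For Arrb2 they were the first and the third of anti-CD3 with IFN-4a (-0.30 and -0.29) and the second and the third of anti-CD3 (-0.32 and -0.26). With anti-CD3 the measured kinases and arrestins lay between -1.09 and 0.11, and the 8 members between -0.66 and 4.89. A link between them was not tested.

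Other proteins that act on alpha subunits, 8 measured, gave 5 that fell and none that rose by limma with anti-CD3 (0 rose at an unadjusted p under 0.05; median -0.36). Gpsm3, whose GoLoco motifs are of the kind that Rgs14 carries, fell by 1.01 (SE 0.07), and Gpsm2 fell by 0.48 (SE 0.08). The alpha subunit chaperones Ric8a and Ric8b fell by 0.49 and 0.48. Among 18 effectors, 12 fell and none rose by limma (1 rose at an unadjusted p under 0.05; median -0.41), led by the adenylyl cyclase Adcy7 at -1.14, the Rac exchange factor Prex1 at -0.94, the phosphodiesterase Pde3b at -0.92 and Dock2, another Rac exchange factor, at -0.71. With IFN-4a in unstimulated cells 1 effector rose and 4 fell (median -0.07), beside 4.25% and 8.37% of all genes. Of those falls, the calls of Prex1 and Adcy6 were lost in 5 of 19 and 6 of 18 alternatives. All of these lists were written with earlier results of these data known, and no test was made of a list as a whole. With anti-CD3, 18% of all genes and 2550 of the 6737 bright genes were called lower. Nothing is read from the lists' counts against these.

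**Figure D5:**
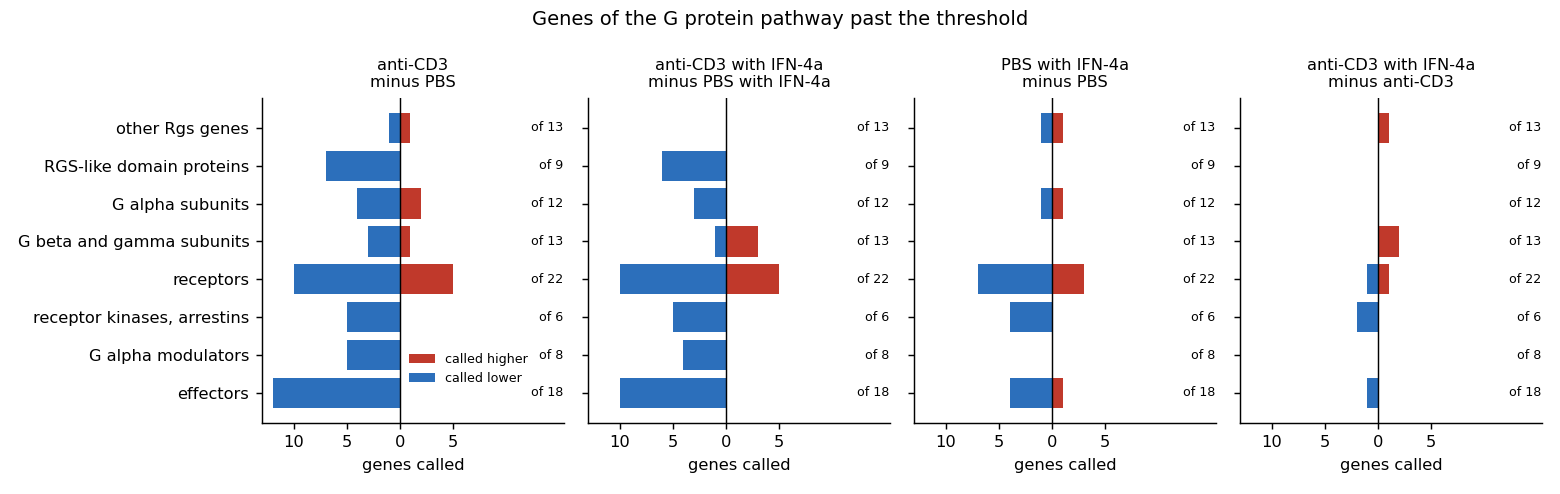
Number of genes called higher (right of 0) and lower (left of 0) in 8 lists of the G protein pathway (vertical axis) in 4 comparisons (panels), with the number measured at the right edge. With anti-CD3, 12 of 18 effectors and 7 of 9 RGS-like domain proteins were called lower and none higher, while the receptors gave 5 higher and 10 lower, and the panel for IFN-4a in stimulated cells holds the fewest calls. Of all genes, 18% were called lower with anti-CD3.

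The genes whose values followed each member most closely over the 12 arrays are given by Pearson correlation, as a description of arrays that share 4 treatments. Rgs16 was followed by Nudc, Spry1 and Gramd1b, all at 0.998, and Rgs1 by Nol10 (0.997), Acsl5 (0.996) and Egr2 (0.996). A correlation does not tell size: with anti-CD3 Nudc differed by 0.85 and Spry1 by 3.87, against 4.89 for Rgs16. Rgs2 was followed by Pts (0.991), Rexo5 (0.986) and Fam118a (0.985), and Rgs14 by Rmnd5b (0.974), Htra2 (0.969) and Slc44a2 (0.967). Rgs19 was followed by Tmc6 (0.975), Ncf4 (0.965) and Crmp1 (0.964), and Rgs10, high with PBS and IFN-4a, by Cpeb4 (0.975), Usp32 (0.971) and Atad2b (0.963). The likeness was lower for Rgs3, led by Npas2 (0.927), Rpl7l1 (0.920) and Btbd35f2 (0.919), and for Rgs18, led by the olfactory receptor gene Olfr1283 (0.857), Krt27 (0.849) and Zbtb39 (0.840). Among the members themselves, Rgs1 and Rgs16 correlated at 0.99, Rgs2 and Rgs14 at 0.93, and Rgs1 and Rgs2 at -0.96, over 12 arrays.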

How the data were processed

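RNA of 12 mouse CD8+ T cell samples was labelled with biotin and read on arrays, per the labels' protocols. The authors deposited log values, read as log2, centred on each row's median. Their normalization, probe summary and logarithm base were not given in the sources used here. Of 33793 rows, 23521 carried 1 symbol (22180 genes), 1814 several and 8458 none. Rows of a gene were averaged (1082 genes). The number of arrays, 3 a group, limits the precision.

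Group means over all 12 arrays and 5 contrasts were fitted with limma 3.58.1 in R 4.3.3 (lmFit and eBayes, two-sided, 8 residual and 5.18 prior degrees of freedom), checked on simulated data. Values at 8 or above before centring were recognised by decimal steps. Motifs were searched with Python 3.11.15.

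Members and lists were chosen with earlier results of these data known. Named genes are the members, the other Rgs genes, up to 4 called genes with the largest absolute difference per list and comparison, and the 3 best-correlated genes per member, leaving out predicted genes, receptor segments and small RNAs. Gene symbols came from the platform annotation; 21994 genes matched RefSeq by Entrez identifier. Alternatives were quantile normalization, another row per gene, only the groups compared, array weights, robust eBayes, a replicate block, bright probe sets only and leaving out each array. Each Rgs2 probe set alone was an alternative chosen after seeing the data.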

Additional observations from a re-analysis of the deposited data

Results flagged for a closer look

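The IFN-4a difference of Rgs1 differed between stimulated and unstimulated cells by -0.41 (SE 0.09) on the log2 scale, past the threshold of the interaction test in limma. This call was narrow, and was lost in 11 of 12 fits with 1 array left out and under quantile normalization. The 3 arrays with IFN-4a lay above the 3 without in unstimulated cells and below them in stimulated cells. The gene was chosen with earlier results known, so that this is a description.

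For Gng2 the same difference was 0.40 (SE 0.08, limma adjusted p = 0.0377). Its call was lost in 11 of 17 alternatives.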

How the results depend on the processing

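The count of members called with anti-CD3 (6, with IFN-4a absent or present) stayed at 6 under every alternative that tested all 8 members. With IFN-4a in unstimulated cells (5) it was 4 or 5 under these. With bright probe sets only, 5 members were tested and 4 were called in each of these comparisons. The share of the 6737 genes called was then 73.6%, 71.1% and 36.7%, so these counts cannot be compared with the main ones. The replicate block left all member counts as they were (6, 6, 5, 0 and 1). Same-numbered samples correlated at -0.07 to 0.27 over 18 pairs, so not every pair was over 0.1 and the numbers were not taken as a pairing. Samples matched their own number best in 20 of 36 comparisons, where about 12 would do so by chance. With IFN-4a in stimulated cells the count moved from 0 to 1 under quantile normalization and to between 0 and 1 with single arrays left out. In the interaction it moved from 1 to 0 under quantile normalization and to between 0 and 1 with single arrays left out. With bright probe sets only (5 members among 6737 genes) it moved to 2, which were Rgs1 and Rgs2. The causes were not tested.

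Of 747 member values under alternatives, 18 changed sign, 19 lost a call and 5 gained one. Signs turned with single arrays left out, within these ranges: with IFN-4a in stimulated cells Rgs2 (-0.07 to 0.03), Rgs3 (-0.02 to 0.09) and Rgs10 (-0.05 to 0.07), with IFN-4a in unstimulated cells Rgs16 (-0.13 to 0.19), with anti-CD3 in the presence of IFN-4a Rgs18 (-0.08 to 0.04), and in the interaction Rgs3 (-0.13 to 0.01) and Rgs18 (-0.02 to 0.10). They also turned for Rgs16 in the interaction under quantile normalization (0.45) and for Rgs18 with anti-CD3 in the presence of IFN-4a under quantile normalization (0.01) and array weights (0.02), and with IFN-4a in stimulated cells under array weights (0.00). Of 1526 values of list genes, 108 lost a call. Over all genes, calls with IFN-4a in stimulated cells went from 771 to 1402 under array weights, and calls in the interaction from 209 to 123 under quantile normalization and to 396 of 6737 with bright probe sets only. Signal over background could not be read from centred values.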
